A study of Mus musculus with 8 samples.

Results

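Genes of pyroptosis and necroptosis, the lytic forms of programmed cell death, were followed in Paneth cells of mice that drank zinc sulphate. The 9 genes were Casp1, Casp4, Casp8, Gsdmd, Gsdme, Il18, Ripk1, Ripk3 and Mlkl, found by matching their symbols to the Ensembl gene IDs of the count table, which held 55414 IDs. They were chosen by name with their measured difference between zinc and water already known, so that difference is given for them as a description, with no test. All 9 of 9 had enough counts to enter the comparison over 11988 genes.

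The libraries came from cells sorted by fluorescence out of single cell suspensions of the small intestine of C57BL/6J mice, without any transgene or other genetic change in the labels. Milli-Q (ultrapure) water was given to 4 mice, and 4 drank the same water with 25 mM ZnSO4, in both cases for 7 days, and each mouse gave 1 library, made with a stranded mRNA kit. Age and sex were not among the labels of these samples. Library totals ran from 20760764 to 24117111 counts.

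Pyroptosis starts when an inflammatory caspase is switched on. Casp1 is activated on inflammasomes, protein platforms built by sensors such as NLRP6 or NAIP with NLRC4, whereas Casp4 (the mouse gene once called Casp11) binds bacterial lipopolysaccharide in the cytosol directly. Both cut gasdermin D, whose released end forms pores in the plasma membrane, and Casp1 also matures interleukin 18. Necroptosis runs through the kinases RIPK1 and RIPK3 to the pore-forming pseudokinase MLKL, and Casp8 holds this route in check in the intestinal epithelium, where its loss is known to deplete Paneth cells.

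The 3 caspases share a catalytic cysteine. The coding stretch around that codon is printed below because it shows how alike and yet how readily told apart the 3 messages are, with the cysteine codon in capitals (33 bases of the GENCODE canonical coding sequence, GRCm39).
Casp1: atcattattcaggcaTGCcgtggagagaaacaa
Casp4: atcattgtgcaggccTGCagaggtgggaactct
Casp8: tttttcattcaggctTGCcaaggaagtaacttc
The cysteine was residue 284 of 402 in Casp1, 254 of 373 in Casp4 and 362 of 480 in Casp8. Casp1 and Casp4 shared 22 of these 33 bases, and each of them shared 19 with Casp8. Over the aligned coding sequence, Casp1 and Casp4 were 64.2% identical (702 of 1093 bases). By the same alignment Casp8 gave 61.9% with Casp1 and 62.1% with Casp4. Only bases aligned without a gap were counted, and no unrelated sequences were aligned for scale. These percentages therefore do not show how closely the genes are related. In the sense direction, no 75-base window of the annotated Casp1 or Casp4 transcripts occurred in a transcript of another annotated gene. The same held for Gsdmd, Gsdme and Ripk3. For Casp8, Il18, Ripk1 and Mlkl, between 96.2% and 98.5% of the windows were found in their own gene alone. Opposite strands were not searched. Exon bases shared there, such as 24% of those of Gsdme with Pals2, do not enter these figures.

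The labelled cell type was checked against its markers first. A list of 10 Paneth cell genes (among them Lyz1, Itln1, Mmp7 and several Defa genes) took 45.5% to 55.2% of all counts in the water libraries and 43.3% to 56.4% in the zinc libraries. Goblet cell markers took 0.875% to 1.09% with water and 1.04% to 1.44% with zinc (means 1.02% and 1.17%), and stem and transit-amplifying markers 0.378% to 0.795% with water and 0.401% to 0.470% with zinc (means 0.593% and 0.444%). The highest goblet marker was Spink4 (mean 6960 CPM) and the highest stem marker Olfm4 (4069 CPM), so 1 gene weighs heavily in each of these shares. Enterocyte markers took 0.0431% to 0.0629% over both groups. Among 20 immune cell markers, Cd3e, Cd3g, Cd8a, Cd7, Itgax, Tyrobp, Fcer1g and Ly86 were at 0 in every library, and the whole list summed to 22 to 57 counts per water library and 5 to 24 per zinc library. Stromal markers summed to 10 counts or fewer. None of the 8 lists passed a test between the groups (exact two-sided permutation test of 4 against 4 libraries, smallest adjusted p = 0.457, with a smallest unadjusted p of 0.0571 for the immune list and 0.0286 the smallest that the design can give). A single list at that smallest p would not pass once adjusted over 8 lists, so likeness of the groups cannot be read from this. The zinc treatment was visible in Mt1, a metallothionein gene, at 13.8 to 29.1 CPM with water and 189 to 425 CPM with zinc (log2 fold change 3.65, SE 0.38, edgeR adjusted p = 0.0259).

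The 9 genes were present at very different levels. On a per-length scale (CPM per kilobase of merged exons, where CPM is counts scaled to a common library total with TMM factors, which balance library composition), Casp8 stood at 10.9 ± 0.799 (SD, n = 8 mice) and Casp1 at 6.72 ± 1.27. These are the initiator caspase of the death receptors and the inflammasome caspase, and they ranked 1357 and 2213 among the 11988 genes tested. Ripk3 followed at 4.01 ± 0.511 and Ripk1 at 1.91 ± 0.218. Gsdmd (1.79 ± 0.575) and Casp4 (1.35 ± 0.651) lay in the lower part of the expressed genes, at rank 6340 and 7276. Gsdme, a gasdermin opened by the apoptotic caspase 3, stood at 0.741 ± 0.411. Il18 (0.311 ± 0.0837) and Mlkl (0.295 ± 0.0857) were close to the bottom of the tested genes, at rank 10571 and 10647.

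Neighbours in this order were compared within mice on the log2 scale of the per-length level (pseudocount 0.1), by an exact two-sided permutation test that flips the sign of the difference in each of the 8 mice, adjusted over the 8 pairs. Casp8 was above Casp1 in 8 of 8 mice, by 0.70 on the log2 scale (adjusted p = 0.0156 by the exact permutation test). Casp1 was above Ripk3 by 0.72, Ripk3 above Ripk1 by 1.03 and Gsdme above Il18 by 0.94, each in 8 of 8 mice and with the same adjusted p of 0.0156 by that permutation test, which rests on the smallest p that 8 mice allow (0.00781). The other 4 pairs did not pass. Ripk1 was above Gsdmd in 4 of 8 mice by a mean of 0.14 ± 0.48 (SD of the differences), Gsdmd above Casp4 in 6 of 8 by 0.47 ± 0.55, Casp4 above Gsdme in 5 of 8 by 0.75 ± 0.91 and Il18 above Mlkl in 5 of 8 by 0.06 ± 0.40 (exact permutation adjusted p = 0.464, 0.075, 0.0833 and 0.711). These pooled positions hide the groups, since Casp4 was above Gsdme in 4 of 4 water mice and 1 of 4 zinc mice, and Gsdmd was above Casp4 in 2 of 4 water mice and 4 of 4 zinc mice. Ripk1 was above Gsdmd in 1 of 4 water and 3 of 4 zinc mice. The 4 pairs that passed had the same order in all mice of both groups. With the longest transcript as the length of a gene, Casp4 and Gsdme came out level (-0.01), since the merged exons of Gsdme span 13069 bases and its longest transcript 4628. On that scale Il18 was above Mlkl by 0.50 (exact permutation adjusted p = 0.0375). The 4 pairs that passed did so there too, at other sizes (exact permutation adjusted p of 0.0208 to 0.0312). Casp8 was above Casp1 by 0.37, Casp1 above Ripk3 by 0.96, Ripk3 above Ripk1 by 0.69 and Gsdme above Il18 by 1.66. The p-values rest on agreement between mice and do not cover the choice of length.

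**Figure D1:**
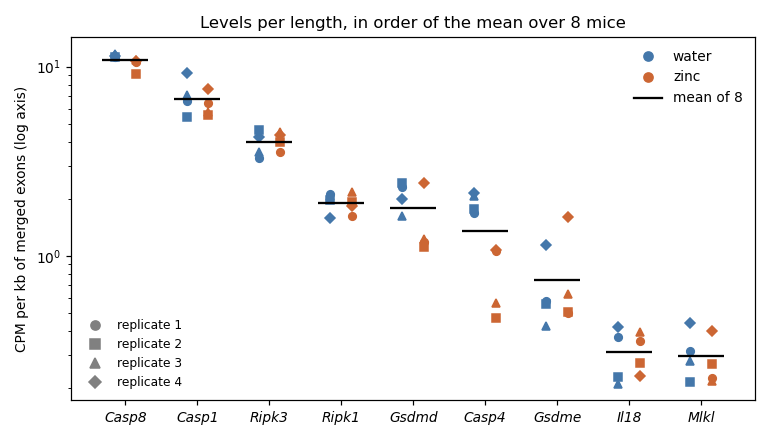
Level of each of the 9 genes per kilobase of merged exons (CPM per kb, log axis), with 1 point per library (blue water, orange zinc, marker shape for the replicate number) and a line at the mean of the 8 mice. Casp8 and Casp1 lie at the top with means of 10.9 and 6.72, and Il18 and Mlkl at the bottom with 0.311 and 0.295, while the blue and orange points of Casp4 stand apart.

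Casp4 and Casp1 are neighbours on chromosome 9. Casp1 (ENSMUSG00000025888) occupies positions 5298508 to 5307290 on the plus strand of GRCm39, and Casp4 (ENSMUSG00000033538) starts 1537 bases further on, at 5308828, and ends at 5336783. Another caspase gene of this family, Casp12, follows 8631 bases after Casp4. The 250 bases before the canonical start of Casp4 and of Casp1 are printed because the genes adjoin and their promoters differ in the motifs searched (build GRCm39, plus strand, 5′ to 3′), with matches to the NF-kB consensus in capitals.
Casp4 promoter, chr9:5308593-5308842: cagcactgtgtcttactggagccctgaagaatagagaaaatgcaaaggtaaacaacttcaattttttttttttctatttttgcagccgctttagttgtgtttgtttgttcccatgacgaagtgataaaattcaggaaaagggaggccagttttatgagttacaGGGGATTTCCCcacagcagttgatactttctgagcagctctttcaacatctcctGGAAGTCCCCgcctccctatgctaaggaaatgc
Casp1 promoter, chr9:5298258-5298507: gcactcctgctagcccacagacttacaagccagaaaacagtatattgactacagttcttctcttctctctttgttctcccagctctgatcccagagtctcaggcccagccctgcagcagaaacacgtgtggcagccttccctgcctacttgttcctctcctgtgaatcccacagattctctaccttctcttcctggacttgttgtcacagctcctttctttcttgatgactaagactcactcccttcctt
The motifs searched, each on both strands, were the interferon-stimulated response element, the interferon gamma-activated sequence (TTCNNNGAA), the NF-kB consensus and the metal response element (TGCACNC or TGCGCNC). The Casp4 promoter held 3 NF-kB matches, which began 87, 86 and 33 bases before the start, the first 2 of them overlapping (GGGGATTTCCC), and no other motif. The letters of the NF-kB consensus were settled after the sequences had been seen. Of 21770 promoters of the same length, 7.62% held the NF-kB motif, and among the 9 genes only Casp4 did. Mlkl held an interferon-stimulated response element 250 bases before its start (3.32% of all promoters) and Ripk1 a metal response element 30 bases before its start (21.9% of all promoters). The promoters of Casp1, Casp8, Gsdmd, Gsdme, Il18 and Ripk3 held none of these motifs. A match of letters is a description of the sequence and was not tested as a binding site.

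Casp4, the receptor and protease for cytosolic lipopolysaccharide, had the largest difference among the 9 genes. Water replicates 1 to 4 held 8.82, 9.28, 10.8 and 11.2 CPM, and zinc replicates 1 to 4 held 5.58, 2.46, 2.96 and 5.66 CPM. All 4 zinc libraries were below all 4 water libraries, as was so for 1.59% of all genes tested, and the zinc libraries fell into a lower pair (replicates 2 and 3) and a higher pair (replicates 1 and 4). The counts behind these values were 141 to 294 per water library and 51 to 146 per zinc library. The mean was 10.04 ± 1.17 CPM (SD, n = 4) with water and 4.17 ± 1.69 CPM with zinc, 2.42-fold lower, and the fitted log2 fold change was -1.27 with a standard error (SE) of 0.25. Scaled to library totals alone, the groups touched, because zinc replicate 4 (6.93 CPM) passed water replicate 1 (6.73 CPM). In these bulk libraries, fewer cells that carry a message and less of the message per cell cannot be told apart. The mean shares of the immune and the stem markers were also lower with zinc and that of the goblet markers higher, as given above, and their part in the Casp4 values was not tested.

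Casp1, the inflammasome caspase, held 20.7, 17.0, 22.3 and 28.9 CPM with water and 20.2, 17.4, 18.1 and 24.0 CPM with zinc, and the groups overlapped throughout. Its log2 fold change was -0.16 (SE 0.16). The ratio of the neighbours does not depend on the scaling of a library. It is again a description, since it rests on Casp4. For every 100 Casp1 counts water replicates 1 to 4 held 42.6, 54.7, 48.6 and 38.9 Casp4 counts, and the zinc replicates 27.6, 14.1, 16.4 and 23.6 (means 46.2 ± 6.93 and 20.4 ± 6.25). Casp12, on the other side of Casp4, gave 11.6 ± 2.73 counts per 100 Casp1 counts with water and 10.5 ± 0.889 with zinc, and these groups overlapped. The Casp4 ratios of the groups thus stood apart, while the levels of both its neighbours overlapped.

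**Figure D2:**
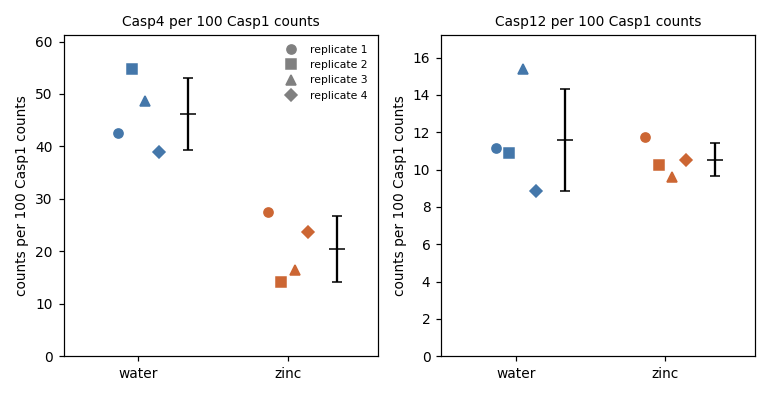
Counts of Casp4 (left) and Casp12 (right) per 100 Casp1 counts in the same library (y axes, starting at 0), with 1 point per library, the marker shape giving the replicate number and the black bar the mean ± SD of 4. The Casp4 ratio lies between 38.9 and 54.7 with water and between 14.1 and 27.6 with zinc, whereas the Casp12 points overlap (8.86 to 15.4 with water and 9.61 to 11.7 with zinc).

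Il18 (ENSMUSG00000039217, chromosome 9, positions 50466081 to 50493633), the cytokine that Casp1 matures, was barely present. It held 15 to 33 counts per library, which is 1.13, 0.687, 0.634 and 1.26 CPM with water and 1.07, 0.821, 1.19 and 0.698 CPM with zinc. The groups overlapped fully, and the log2 fold change of 0.03 had an SE of 0.44, the widest of the 9 genes after that of Gsdme. A difference of the size of that SE, and also a larger one, could be missed at these counts.

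Gsdmd (ENSMUSG00000022575, chromosome 15, positions 75733974 to 75739257), the pore-forming target of Casp1 and Casp4, held 6.94, 7.30, 4.86 and 6.00 CPM with water. With zinc, replicates 1 to 3 held 3.56, 3.33 and 3.67 CPM and replicate 4 held 7.29 CPM. So 3 of the 4 zinc libraries lay below every water library, and replicate 4 lay beside the highest of them. The means were 6.28 ± 1.09 and 4.47 ± 1.89 CPM, with a log2 fold change of -0.48 (SE 0.26). Without zinc replicate 4 the estimate was -0.83. Zinc replicate 4 was also the library with the smallest share of Paneth markers (43.3%) and the largest of goblet markers (1.44%), and the part of these shares in its Gsdmd value was not tested.

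Gsdme (ENSMUSG00000029821, chromosome 6, positions 50165868 to 50240842 on the minus strand) was highest in the library with replicate number 4 of either group. Water replicates 1 to 3 held 7.51, 7.30 and 5.58 CPM and zinc replicates 1 to 3 held 6.53, 6.61 and 8.22 CPM, while replicate 4 held 14.8 CPM with water and 20.9 CPM with zinc. Apart from these libraries, the groups overlapped. The group means, 8.80 ± 4.10 and 10.6 ± 6.96 CPM, gave a log2 fold change of 0.27 (SE 0.48), which was -0.31 without zinc replicate 4 and 0.65 without water replicate 4. With both of these libraries left out it was 0.07. On the opposite strand, Pals2 shares 24% of the exon bases of Gsdme, and the sources used here do not give the strand setting of the counting. Pals2 held 29.7 and 37.5 CPM in the number 4 libraries, within its range of 27.1 to 40.3 CPM over all 8.

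Within the groups, Gsdme varied the most of the 9 genes and Casp8 the least. The SD of log2 CPM within groups was 0.70 for Gsdme, at percentile 93 of the tested genes, and 0.08 for Casp8, at percentile 1.92. The median over all tested genes was 0.24. Casp4 (0.44), Gsdmd (0.41), Mlkl (0.40), Il18 (0.39) and Casp1 (0.27) were above that median, and Ripk3 (0.20) and Ripk1 (0.18) below it. The number 4 libraries held the highest value of their group for 5 of the 9 genes with water and 5 of the 9 with zinc, where 25.4% and 26.7% of all tested genes were highest in these libraries. On library totals alone the counts were 7 of 9 in both groups, beside 57.1% and 67.4% of all tested genes.

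The 3 tested genes nearest to Gsdme in pattern were taken by the smallest root mean square (RMS) difference of centred log2 CPM over the 8 libraries, in a search added after the Gsdme values had been seen. Anxa2 (annexin A2), at an RMS difference of 0.22, held 58.7 and 74.7 CPM in the number 4 libraries and 19.3 to 31.5 CPM in the other 6. Mgst2, a microsomal glutathione transferase (RMS 0.24), held 19.4 and 29.2 CPM against 7.95 to 12.02 CPM. Hsd17b2, a steroid dehydrogenase (RMS 0.23), held 2.18 and 2.79 CPM against 0.713 to 1.31 CPM. For scale, the median tested gene differed from Gsdme by 0.66, and the nearest genes lie below that by the way they were picked. The Paneth marker share was the lowest of its group in both number 4 libraries (45.5% and 43.3%), and these had the largest TMM factors (1.213 and 1.225). Neither was tested as a source of the Gsdme values.

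**Figure D3:**
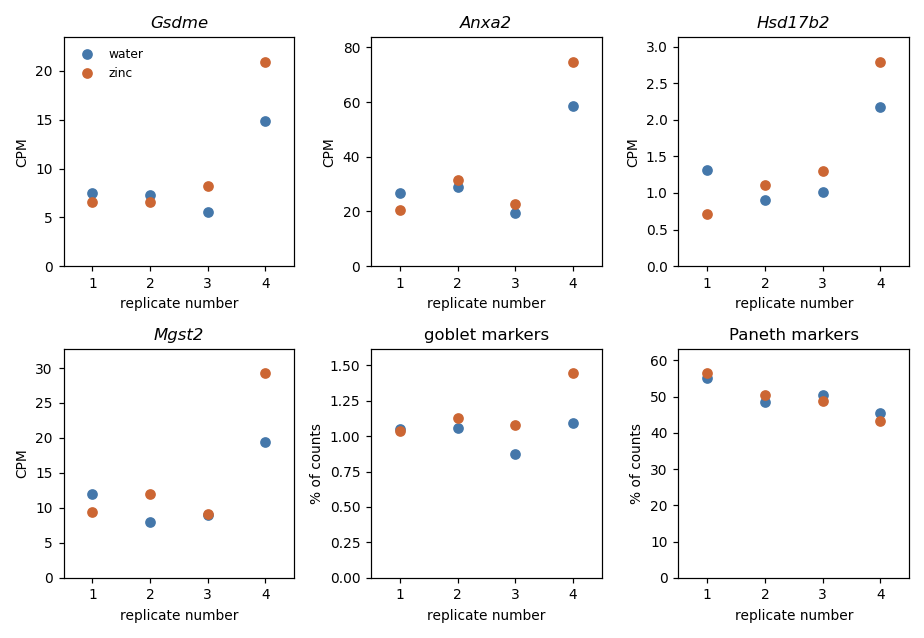
Gsdme, its 3 nearest genes in pattern (CPM) and the goblet and Paneth marker shares (% of counts), plotted against the replicate number of the labels, with 1 blue point for water and 1 orange point for zinc at each number and y axes from 0. The 4 genes are highest at number 4 in both groups (14.8 and 20.9 CPM for Gsdme), where the Paneth share is lowest (45.5% and 43.3%).

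Casp8 (ENSMUSG00000026029, chromosome 1, positions 58834375 to 58886665), the caspase that cleaves RIPK1 and RIPK3, was the steadiest member. It held 34.8, 34.8, 36.1 and 34.9 CPM with water and 32.5, 28.1, 33.3 and 33.2 CPM with zinc. All zinc values were below all water values, by a small margin (35.2 ± 0.611 against 31.8 ± 2.47 CPM, log2 fold change -0.15, SE 0.11). On library totals the groups overlapped, and only 1 of the 4 zinc libraries was below every water library.

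The kinases of the necrosome showed no such separation. Ripk1 (ENSMUSG00000021408, chromosome 13, positions 34186141 to 34221130), the scaffold kinase downstream of TNF receptor 1, held 23.4, 21.6, 22.6 and 17.4 CPM with water and 17.9, 21.2, 23.8 and 20.1 CPM with zinc (log2 fold change -0.03, SE 0.14). Ripk3 (ENSMUSG00000022221, chromosome 14, positions 56022452 to 56026324), the kinase that phosphorylates MLKL, held 8.32, 11.8, 8.93 and 10.7 CPM with water and 8.91, 10.1, 11.4 and 11.05 CPM with zinc (log2 fold change 0.06, SE 0.16). For every 100 Ripk1 counts there were 47.8 ± 12.3 Ripk3 counts with water and 50.1 ± 3.43 with zinc, so the ratio of the pair varied more among the water mice than it differed between the groups. Mlkl (ENSMUSG00000012519, chromosome 8, positions 112036296 to 112065168), the executor, held 1.81, 1.25, 1.61 and 2.56 CPM with water and 1.31, 1.54, 1.26 and 2.33 CPM with zinc, from 22 to 67 counts, with a log2 fold change of -0.16 (SE 0.36). In both groups its highest library was again replicate 4. Parts of the Mlkl (11.6%), Gsdmd (9.42%) and Casp1 (3.51%) exon bases overlap opposite-strand non-coding genes that were not analysed here, and 2.19% of those of Ripk1 overlap Serpinb6a on the opposite strand. On its own strand, Ripk1 shares 4.65% of its exon bases with the processed pseudogene Gm17084, which had 0 counts in every library.

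**Figure D4:**
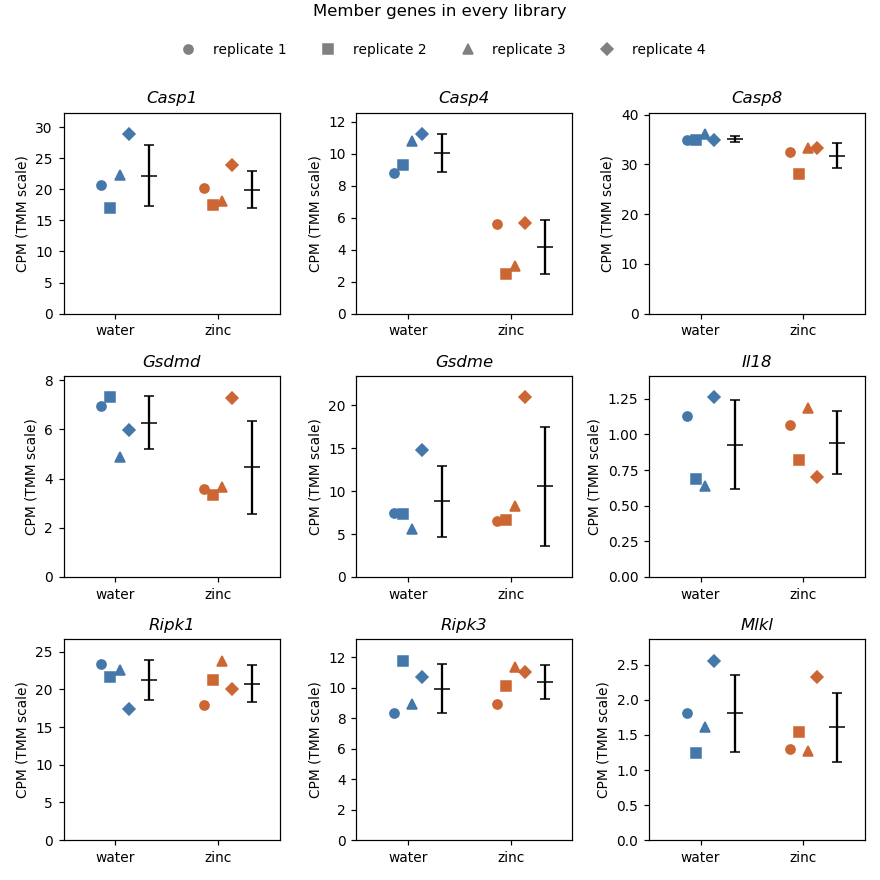
CPM (TMM scale, y axes from 0) of each of the 9 genes in every library, blue for water and orange for zinc, with the marker shape giving the replicate number and the black bar the mean ± SD of 4 mice. Casp4 shows a clear gap between the groups (8.82 CPM or more with water, 5.66 CPM or less with zinc), and Gsdme shows replicate 4 on top in both groups.

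Over the whole set, 6 of the 9 log2 fold changes were below 0 and 3 above, with a median of -0.15, beside a median of 0.01 over all 11988 genes, of which 48.1% were below 0. For 6 of the 9, the SE exceeded the size of the estimate. None of the 9 passed an edgeR adjusted p of 0.05, beside 0.0834% of all genes (3 higher and 7 lower with zinc). Casp4 alone was below an unadjusted p of 0.05, beside 4.65% of all genes, and it alone passed the threshold in DESeq2 (0.284% of all genes) and in limma-voom (0.1%). Casp4 and Casp8 were the 2 genes whose zinc libraries all lay below all water libraries, beside 1.59% of all genes. Because the genes were chosen with this contrast in view, nothing is read from these counts. No gene of the 9 had all zinc libraries above all water libraries, beside 1.24% of all genes. When each library was left out in turn, Casp4 stayed between -1.48 and -1.09, Casp8 between -0.18 and -0.09, Casp1 between -0.28 and -0.01 and Gsdmd between -0.83 and -0.36, and Gsdme, Il18, Ripk1, Ripk3 and Mlkl each took both signs.

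**Figure D5:**
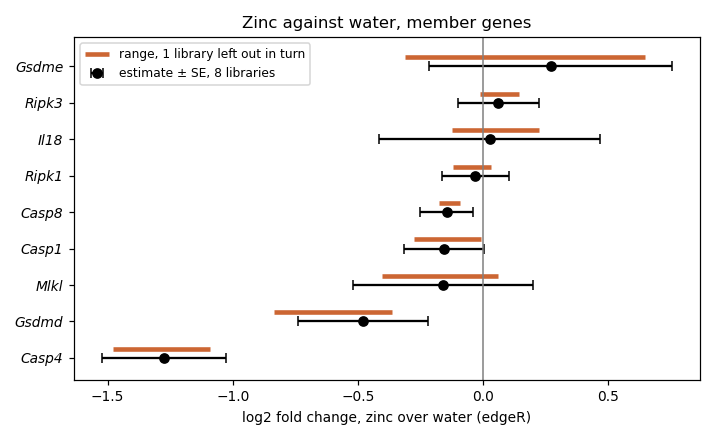
Log2 fold change of zinc over water for each of the 9 genes (x axis, edgeR), as the estimate ± SE over the 8 libraries (black) and as the range when 1 library was left out in turn (orange). Casp4 lies at -1.27 with a range of -1.48 to -1.09, and the range of Gsdme spans 0, from -0.31 to 0.65.

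The genes whose pattern over the 8 libraries was nearest to Casp4 were Pxdn, which encodes peroxidasin, a peroxidase of the extracellular matrix (RMS difference 0.24), Smad6, an inhibitor of BMP signalling (0.33), and Cntnap1 (0.33), where the median tested gene differed by 0.81. The nearest genes lie far below the median by the way they were picked. Pxdn held 9.95 to 14.4 CPM with water and 2.41 to 5.94 CPM with zinc and was among the 7 genes that were lower with zinc (log2 fold change -1.63, edgeR adjusted p = 0.0198). Cntnap1 was low, at 0.730 to 1.64 CPM with water and 0.237 to 0.475 CPM with zinc. Casp4 was known to differ between the groups, so genes picked for likeness to it share that difference, and their values are a description. Nearest to Gsdmd were Tmt1b (0.18), Ninl (0.19) and Mitd1 (0.20), with a median of 0.51 over all tested genes. In Tmt1b, as in Gsdmd, zinc replicates 1 to 3 (2.73 to 3.62 CPM) lay below all water libraries (4.44 to 6.38 CPM), and zinc replicate 4 stood at 7.25 CPM.

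Around the 9 genes, 87 further genes of the same pathways were listed in 6 groups, of which 67 were tested. None of the 67 passed the edgeR threshold in either direction, and none passed in DESeq2 or limma-voom. An unadjusted p below 0.05 was found for 5 of them, beside the 4.65% of all genes given above. The smallest adjusted p in edgeR was 0.852, and 46 of the 67 fold changes were below 0, with a median of -0.07. Over all 11988 genes 48.1% were below 0, with a median of 0.01. The lists were chosen with earlier results of these data known, so nothing is read from this count or from those of single lists. The genes named from each list are those with the highest mean CPM, which is not corrected for length, and the one with the smallest unadjusted p.

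The sensors and adaptors that feed Casp1 were expressed in part. Nlrp6, an inflammasome sensor of the intestinal epithelium, held 95.5, 113, 80.1 and 114 CPM with water and 77.1, 76.4, 82.8 and 80.0 CPM with zinc. It had the highest CPM and the smallest unadjusted p of its list, and the difference did not pass (log2 fold change -0.35, SE 0.12, edgeR adjusted p = 0.881). Pycard, the adaptor that joins sensors to Casp1 (70.01 ± 14.9 and 68.0 ± 4.81 CPM), and Naip2, which recognises the inner rod of bacterial secretion systems (45.7 ± 4.80 and 44.9 ± 1.76 CPM), had log2 fold changes of -0.04 and -0.03. No library held a count of Nlrp3, Nlrp9b or Mefv, and an empty row still permits a level of 0.115 to 0.188 CPM depending on the library (3 counts, for counting error only, since no molecular identifiers were used). Of the 13 listed genes 10 were tested, 7 of them with a fold change below 0.

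Among the other gasdermins and effectors, Ninj1, which breaks the plasma membrane after gasdermin pores have formed, had the highest CPM (29.8 ± 3.23 with water and 29.4 ± 2.93 CPM with zinc, log2 fold change -0.02). Gsdma2 held 7.24 ± 2.41 and 5.79 ± 1.72 CPM (log2 fold change -0.32) and Casp12 2.54 ± 0.663 and 2.11 ± 0.401 CPM (-0.27). Gsdmc4 had the smallest unadjusted p of the list, at 1.33 ± 0.849 and 0.561 ± 0.267 CPM (log2 fold change -1.23, SE 0.55, edgeR adjusted p = 0.998). The interleukin 1 genes Il1a and Il1b, together with Gsdma3 and Gsdmc, were at 0 in every library, and Gsdmc3, Il33 and Il18r1 were under 0.1 CPM in both groups. Per kilobase of merged exons, Gsdma2 stood at 2.11 CPM, beside 1.79 for Gsdmd, 0.741 for Gsdme and 0.452 for Gsdmc4 (means of 8 mice).

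The guanylate-binding proteins and immunity-related GTPases, only some of which expose lipopolysaccharide of vacuolar bacteria to Casp4, had few counts apart from Irgm1 (31.6 ± 3.29 with water and 33.2 ± 5.71 CPM with zinc, log2 fold change 0.07). Irgm2 (3.62 ± 1.51 and 3.16 ± 1.80 CPM) and Igtp (2.85 ± 0.71 and 2.14 ± 0.848 CPM) came next. Gbp3 had the smallest unadjusted p at 0.853 ± 0.514 and 0.353 ± 0.243 CPM (log2 fold change -1.20, SE 0.61, edgeR adjusted p = 0.998). Gbp2b was at 0 in every library, and Gbp4, Gbp5 and Gbp8 were under 0.1 CPM in both groups. Of 14 listed genes 6 were tested, 5 of them with a fold change below 0. Gbp9, which had too few counts to be tested and is named here after its values were seen, held 18, 3, 7 and 16 counts with water and 0 in all 4 zinc libraries. Of the 11988 tested genes, which leave Gbp9 out, 1.59% had all zinc libraries below all water libraries. The share among genes with as few counts was not computed, so nothing is read from Gbp9.

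The death receptor and necrosome regulators were all expressed, and 21 of 21 were tested. Tnfrsf1a, the TNF receptor from which RIPK1 signals, had the highest CPM (84.5 ± 7.47 with water and 79.9 ± 11.1 CPM with zinc, log2 fold change -0.08), followed by Rbck1, a subunit of the linear ubiquitin ligase (44.7 ± 3.75 and 43.5 ± 2.01 CPM, -0.04), and Tab2, an adaptor of the kinase TAK1 (37.8 ± 4.75 and 39.03 ± 2.53 CPM, 0.05). Birc3, a ubiquitin ligase for RIPK1, had the smallest unadjusted p of all 67 genes. It held 6.88, 7.18, 9.31 and 9.97 CPM with water and 3.33, 5.50, 5.33 and 6.71 CPM with zinc, and did not pass (log2 fold change -0.67, SE 0.22, edgeR adjusted p = 0.852). All 4 zinc libraries were below all water libraries, as for 1.59% of all genes. Another 2 genes of this list were below an unadjusted p of 0.05, and they are named outside the rule, with their values known. Tradd, the adaptor of TNF receptor 1, held 8.99 ± 0.658 with water and 11.9 ± 1.46 CPM with zinc (log2 fold change 0.40, SE 0.15), all 4 zinc libraries above all water libraries, as for 1.24% of all genes. Tnfaip3, a deubiquitinase that restrains NF-kB, held 4.83 ± 1.99 and 2.62 ± 1.08 CPM (-0.86, SE 0.35). The edgeR adjusted p was 0.998 for both.

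Of the apoptosis genes 15 of 15 were tested. Mcl1, which guards the mitochondrial membrane, had the highest CPM and the smallest unadjusted p (67.9 ± 9.09 with water and 57.4 ± 3.82 CPM with zinc, log2 fold change -0.24, SE 0.12, edgeR adjusted p = 0.998). The executioner Casp6 held 35.2 ± 7.06 and 30.9 ± 4.02 CPM (-0.19), and Bak1, which perforates mitochondria, 32.2 ± 7.72 and 34.0 ± 5.03 CPM (0.08). The 15 fold changes ran from -0.24 to 0.29.

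The 10 listed transcription factors, of the NF-kB and interferon pathways, were all tested, with 7 fold changes below 0 and a median of -0.16. Irf8 had the highest CPM (39.5 ± 6.91 with water and 44.1 ± 8.44 CPM with zinc, log2 fold change 0.16), followed by Irf1 (35.6 ± 2.81 and 31.1 ± 4.62 CPM, -0.19) and Nfkb1, a subunit of NF-kB (32.5 ± 4.09 and 28.7 ± 4.86 CPM, -0.18). Irf9, which carries type I interferon signals to response elements, had the smallest unadjusted p (11.2 ± 1.95 and 8.57 ± 2.45 CPM, -0.38, SE 0.20, edgeR adjusted p = 0.998).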

How the data were processed

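RNA of sorted Paneth cells was sequenced in 4 water and 4 zinc mice (1 library each, grouped by the labels). The authors deposited 1 table of raw read counts per Ensembl gene ID, not normalized. The submitters' processing notes name FastQC 0.12.0, STAR 2.7.0a, DESeq2 and the build mm39. The sources used here do not give the counting program, its strand setting or how it handled multi-mapped reads.

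Gene IDs were matched to GENCODE M39 (GRCm39), with a match for 54749 of 55414 IDs (99.9938% of counts or more per library). Genes passing the default low-count filter (minimum count 10) were fitted in edgeR 4.0.16 (R 4.3.3) with TMM scaling, treatment as the only term, robust quasi-likelihood fits and Benjamini-Hochberg adjustment over the 11988 genes tested, at a threshold of 0.05. To obtain an SE, the size of the log2 fold change was divided by the root of the F statistic. CPM values used TMM factors (0.764 to 1.225). Totals of 20760764 to 24117111 counts set the precision, and a library without a count may still hide 3 counts, or 0.115 to 0.188 CPM. Chi-square over genes was 31.4 to 131 per degree of freedom for the 12 within-group pairs, so no library was a duplicate. All p-values measure the spread between these mice.

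Level order and marker shares were tested by exact permutation in Python 3.11.15. Motifs were searched in the 250 bases before each canonical start. The permutation tests, the p-value adjustment, the main edgeR fit and the DESeq2 and limma-voom fits were tested on simulated data. The 9 genes and all lists were chosen with earlier results of these data known. The genes named besides them were, per pathway list, those past the threshold or else the smallest p, the 3 with the highest mean CPM and those under 0.1 CPM in both groups, the 3 genes nearest in pattern to Casp4 and to Gsdmd, and Mt1 for the treatment. Spink4 and Olfm4 were named as the highest of their marker lists. Alternatives were RLE size factors, library totals, DESeq2 1.42.0, limma-voom (limma 3.58.1), no filter on low counts, a minimum mean count of 50, a replicate block, Defa genes left out, and each library left out. For levels they were another gene length, a pseudocount of 1 and library totals, and for shares the counts outside Defa genes. Leaving out both number 4 libraries was added after the data had been seen.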

Additional observations from a re-analysis of the deposited data

Results flagged for a closer look

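In 5 of the 34 groups of 4 libraries examined, the highest or lowest library lay farther from the others than Dixon's 95% limit, where chance flags about 1 in 20 groups. Gsdme in zinc replicate 4 was at 20.94 CPM, with the other 3 zinc libraries between 6.532 and 8.217 CPM. Gsdmd in the same library was at 7.292 CPM, against 3.331 to 3.674 CPM. Casp8 was flagged in both groups, at 36.08 CPM in water replicate 3 (34.84 to 34.9 CPM in the others) and at 28.1 CPM in zinc replicate 2 (32.54 to 33.26 CPM in the others). The goblet marker share of water replicate 3 was 0.8752% of counts, below the 1.054% to 1.09% of the other water libraries. What sets these libraries apart was not tested.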

How the results depend on the processing

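Under the 17 settings tried besides the reported one (16 for Il18 and Mlkl, which a mean count of at least 50 removes), the fold changes of Casp1, Casp4, Casp8 and Gsdmd kept their sign, Casp4 between -1.48 and -1.09 and Gsdmd between -0.85 and -0.36. Gsdme ranged from -0.31 to 0.65, Il18 from -0.13 to 0.35, Ripk1 from -0.12 to 0.03, Ripk3 from -0.01 to 0.14 and Mlkl from -0.40 to 0.06. Casp4 passed the adjusted threshold, besides DESeq2 and limma-voom, with no low-count filter, with the replicate block, without zinc replicate 1 and without zinc replicate 4, and in no other setting. Casp4 was chosen with this contrast known, so nothing is read from these calls. Over all genes, DESeq2 called 8 higher and 26 lower with zinc, against 3 and 7 in edgeR, each of 11988 tested. The fit with no low-count filter called 11 and 55 of 20836, and the replicate block 6 and 26 of 11988. Without zinc replicate 1 the calls were 5 and 10 of 12211, and without zinc replicate 4 they were 2 and 12 of 12128. Leaving out 1 library gave 0 to 5 higher and 1 to 12 lower calls, with 0 and 1 without water replicate 2, 2 and 1 without zinc replicate 2 and 2 and 2 without water replicate 3. The cause was not tested. The one pathway gene called in any setting was Gbp9, with no low-count filter (1 lower of 79 listed genes, beside 55 lower of 20836 over all genes).

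With the replicate block, 6 genes were called higher and 26 lower. Deviations from the group means correlated at 0.23, 0.00, 0.13 and 0.26 between libraries of the same number, and 6 of 8 libraries correlated best with their own number, which hints at pairs in the data. TMM factors were also close between libraries of a number (0.764 and 0.775, 1.017 and 0.998, 1.066 and 1.050, 1.213 and 1.225). The labels do not say what a number shares and number 2 showed no correlation, so the numbers were not taken as pairs. The block narrowed the SE of Gsdme from 0.48 to 0.17.

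Casp4 against Gsdme reversed to -0.007 with the longest transcript as length (adjusted p = 0.977 by the exact permutation test), and Il18 against Mlkl passed there at 0.50. The latter ran from -0.025 to 0.151 with 1 library left out. The zinc minus water difference in marker shares changed sign for Paneth (0.463 percentage points of the counts outside Defa genes, and -2.405 to 1.981 with 1 library left out), and on leaving out 1 library for enterocyte (-0.001003 to 0.006259), tuft (-0.002442 to 0.002641), enteroendocrine (-0.001965 to 0.001612) and stromal markers (-4.431e-06 to 1.148e-05). Leaving out water replicate 1 brought the stem marker difference to -0.2205 (exact permutation p = 0.0286, adjusted p = 0.229), from -0.1491. Depth limits Il18 and Mlkl most, at 15 to 67 counts per library.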
